A study of Mus musculus with 28 samples.

Results

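The Myc network is the set of basic helix-loop-helix leucine zipper proteins that pair with Max or Mlx, and its 10 genes were followed through livers with tumours driven by a Myc transgene. The members were taken by symbol (Myc, Mycn, Mycl, Max, Mxd1, Mxd3, Mxd4, Mxi1, Mnt and Mlx), and all 10 were found among the 18182 genes of the deposited table. RNA sequencing of poly(A) RNA covered 28 mouse liver libraries, 14 from hepatocellular carcinoma and 14 from the tissue around the tumour, called peritumour here. All 28 carry the genotype c-Myc/Alb-cre transgenic, in which the albumin promoter directs Cre to hepatocytes, so the peritumour libraries are not normal liver and no library without the transgene was used here. Each tumour shares a title code with 1 peritumour library, read here as the same animal. The labels sort the tumours into Tu_F (n = 11) and Tu_M (n = 3) and the tissue around them into Pe_F (n = 11) and Pe_M (n = 3), and leave F and M unexplained. Age, strain and the form of the transgene are not given in the sources used here.

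Myc cannot bind its target DNA alone. It pairs with Max, the shared partner, and the dimer binds the E-box CACGTG and recruits acetyltransferases that raise transcription. Mxd1, Mxd3, Mxd4, Mxi1 (also known as Mxd2) and Mnt compete for Max at the same motif and recruit the Sin3 and histone deacetylase corepressors. Mlx is a Max-like partner for Mnt, Mxd1 and Mxd4, and joins the network to the glucose-responsive factors Mlxip and Mlxipl (MondoA and ChREBP), the latter a regulator of sugar and fat synthesis in liver. Mycn and Mycl are paralogs of Myc that are best known from the developing nervous system and from lung tumours.

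The E-box is the DNA word that the network reads, and some members carry it in their own promoters. RefSeq promoter windows on GRCm38.p6, 250 bases before to 50 after each start, were searched for CACGTG, which reads the same on both strands. It was present in 7.2% of all 32851 windows and in 11.3% of the 11218 tested genes that have a window. Of the 9 members with a window, 4 held it, namely Max, Mlx, Mnt and Mxd4, and the windows of Mycl, Mycn, Mxd1, Mxd3 and Mxi1 did not. Myc was not found in the promoter table. The stretches around the motif are printed 5′ to 3′ on the strand of the gene, with the E-box in capitals, to show where the motif lies in each member. The 4 member stretches lie at chr12:76962246-76962278 on the minus strand, chr11:101087223-101087282 on the plus strand, chr11:74830774-74830833 on the plus strand and chr5:34187897-34187956 on the minus strand.
Max: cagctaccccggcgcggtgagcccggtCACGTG
Mlx: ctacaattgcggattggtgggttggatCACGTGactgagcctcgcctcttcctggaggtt
Mnt: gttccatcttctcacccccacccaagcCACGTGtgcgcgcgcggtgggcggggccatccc
Mxd4: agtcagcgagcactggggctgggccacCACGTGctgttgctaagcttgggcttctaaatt
The motif begins 3 bases before the start of Max, 40 before Mlx, 123 before Mnt and 219 before Mxd4. A match is a description of sequence, and binding was not measured.

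A promoter with several E-boxes is shown for contrast, that of Cdk4, the cyclin-dependent kinase of early cell cycle entry and a classical induced target of Myc. Its window holds 4 copies, at 172, 118, 98 and 11 bases before the start (chr10:127063285-127063534, plus strand). Mlxipl has a copy 98 bases before the start of 1 of its windows (chr5:135089765-135089824, plus strand).
Cdk4: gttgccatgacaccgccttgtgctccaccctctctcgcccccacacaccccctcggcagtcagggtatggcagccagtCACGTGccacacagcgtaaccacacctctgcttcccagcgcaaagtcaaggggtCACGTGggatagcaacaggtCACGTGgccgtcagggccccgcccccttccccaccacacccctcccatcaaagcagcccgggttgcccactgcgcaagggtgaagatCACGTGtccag
Mlxipl: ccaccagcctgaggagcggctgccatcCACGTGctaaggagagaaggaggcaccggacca
Of the 11 induced Myc targets with a window, 4 held the motif, and of 9 Mlxipl targets 2 did.

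The libraries held between 14777567 and 17576921 estimated counts each, and the level of a gene is given as CPM, its count scaled to a common library total. Hepatocyte markers were high in every library, with a summed level of 8 genes between 15200 and 51300 CPM in tumour and between 16700 and 67300 CPM in peritumour. The 5 neuroendocrine markers summed to between 0.47 and 1.96 CPM. Erythroid and granulocyte precursor markers were uneven, with summed levels up to 198 and 561 CPM in tumour and up to 158 and 660 CPM in peritumour. They were high in libraries of F replicates 2, 5 and 6 and in the tumour of F replicate 4. Some results are also given without F replicates 2, 5 and 6. F replicate 4 stays in that setting, so not every library high in these markers is left out. In bulk tissue, fewer cells of a type and less RNA per cell cannot be told apart.

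Levels between genes were compared on the deposited TPM values, which take transcript length into account. Myc was the highest member in all 28 libraries, with a mean of 287 ± 102 TPM (SD, n = 28) and a rank between 299 and 1099 among all genes of its library. Max followed at 60.9 ± 11.6 TPM, then Mlx at 44.7 ± 4.89, Mxd4 at 43.4 ± 10.7 and Mxi1 at 33.0 ± 8.09 TPM (SD, n = 28 each). A lower tier held Mnt at 8.06 ± 2.05, Mxd1 at 4.67 ± 1.85, Mycl at 4.57 ± 1.72 and Mxd3 at 3.46 ± 1.56 TPM, and Mycn stood last at 0.17 ± 0.113 TPM (SD, n = 28 each). The steps from Myc to Max, from Mxi1 to Mnt and from Mxd3 to Mycn kept their order in 28 of 28 libraries. Max exceeded Mlx in 26 libraries, Mxd4 exceeded Mxi1 in 23, Mnt exceeded Mxd1 in 26 and Mycl exceeded Mxd3 in 20. Mlx and Mxd4, with Mlx above in 14 of 28 libraries, and Mxd1 and Mycl, with Mxd1 above in 12, did not differ beyond their spread.

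**Figure D1:**
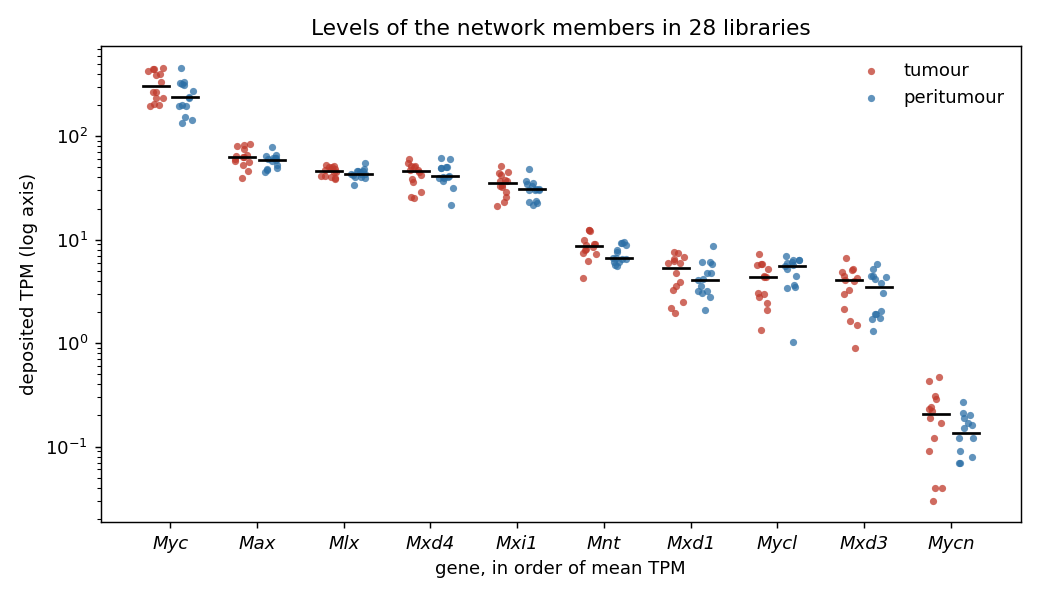
Deposited TPM of the 10 members on a log axis, 1 point a library (red tumour, blue peritumour, 14 each), with black bars at the group medians. The 1 library with Mycn at 0 is not drawn. Myc lies above every other member, with a median of 304 TPM in tumour and 238 TPM in peritumour.

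Myc thus took between 41.8% and 68.4% of the summed TPM of the 10 members, with a median of 56.2%, and outweighed the other 9 together in 23 of 28 libraries. Myc to Max, the ratio of the activator to its obligate partner in TPM, had a median of 4.72 in tumour (3.61 to 8.64) and of 4.13 in peritumour (2.52 to 7.06). The competitors for Max (Mxd1, Mxd3, Mxd4, Mxi1 and Mnt) summed to between 62.0 and 122 TPM, and Myc exceeded that sum in 28 of 28 libraries. These are RNA levels and say nothing of protein. Gene-level counts also do not show how much of the Myc RNA came from the transgene and how much from the mouse's own gene (chr15:61985341-61990472), and the 2 cannot be told apart here.

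By edgeR over all animals, Myc was the only member called between the tissues, and only when each tumour was set against its own animal's liver. In CPM scaled by TMM (trimmed mean of M values, a correction for library composition), Myc ran from 258 to 671 with a median of 429 in the 14 tumours, and from 209 to 660 with a median of 347 in the 14 peritumour libraries. The groups overlapped over most of their range. The mean was 458 ± 140 CPM in tumour and 364 ± 125 CPM in peritumour (SD, n = 14 each). Tumour was higher in 10 of 14 animals, in 7 of 11 with the letter F and in 3 of 3 with M. Without TMM, on library size alone, it was higher in 12 of 14.

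**Figure D2:**
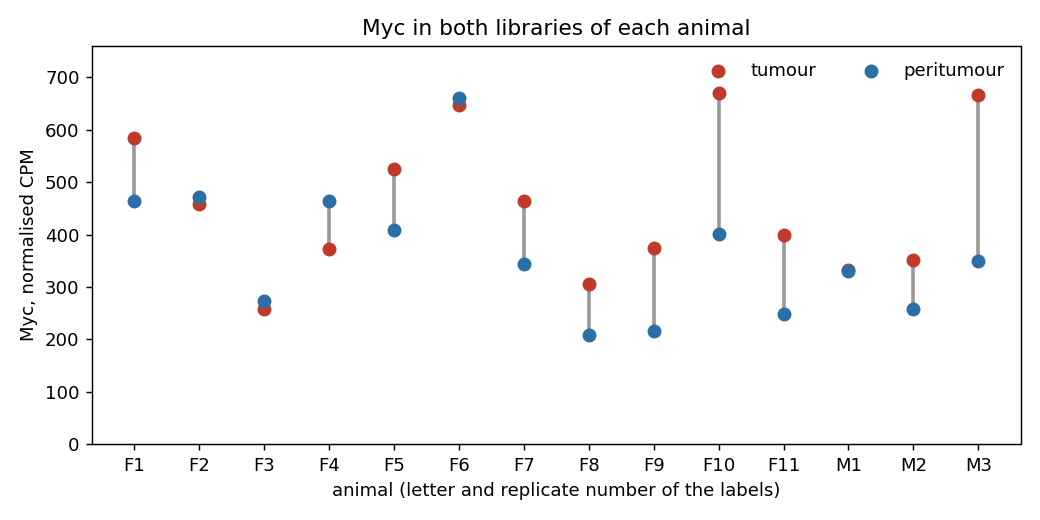
Myc in the tumour (red) and peritumour (blue) library of each animal, in TMM-normalised CPM from 0, with a grey line joining the 2 libraries. The widest gaps are in M3, F9, F10 and F11, and F6 is high in both tissues at 648 and 660 CPM.

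Myc ranged widely between animals. In F replicate 6 Myc measured 648 CPM in tumour and 660 CPM around it, while in F replicate 3 it measured 258 and 273 CPM. The tumour of M replicate 3 held 667 CPM against 350 CPM around it, a difference of 0.93 on the log2 scale and the widest of the 14. In F replicate 9 the values were 375 and 217 CPM, and in F replicate 10 they were 671 and 402 CPM. F replicate 4 went the other way, with 372 CPM in tumour and 465 CPM around it, a log2 difference of -0.32. That tumour also held 469 CPM of granulocyte precursor markers against 37.5 CPM around it, and 198 CPM of erythroid precursor markers against 31.4 CPM. The part of these cells in its Myc level was not tested.

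The edgeR quasi-likelihood test, fitted to the 28 libraries with letter and title code style as covariates and no animal term, put Myc at a log2 fold change of 0.34 ± 0.17 (SE), a fold of 1.26, with an adjusted p of 0.299 (Benjamini-Hochberg over 14117 genes). That fit called 0 of the 9 members tested, against 1.05% of all genes, and 0 members had an unadjusted p under 0.05. The animal code was taken to pair the libraries. With the animal as a block Myc had a log2 fold change of 0.34 ± 0.10 (SE) and a fold of 1.27. Its adjusted p was 0.036 by the same test. With the block 1 of 9 members was called, against 11.5% of all genes, 5.59% higher and 5.91% lower in tumour, so the share of members called is at the background. DESeq2 with the block gave Myc an adjusted p of 0.00888. The call was lost, with adjusted p up to 0.0825, when any of 8 animals was left out (F replicates 1, 7, 8, 9, 10 and 11, M replicates 2 and 3), while the log2 fold change stayed between 0.31 and 0.39. Within the first code style, 6 animals, it was 0.27 (adjusted p = 0.626) and within the second, 8 animals, 0.40 (adjusted p = 0.0705). Without F replicates 2, 5 and 6 it was 0.42 ± 0.11 (SE), with an adjusted p of 0.0248.

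Mycn and Mycl, the paralogs, were far below Myc in both tissues. Mycn was counted between 0 and 11 times a library, from 0.0611 to 0.559 CPM in tumour and from 0 to 0.459 CPM in peritumour, and was the 1 member that failed the filter on low counts. Mycl ran from 2.77 to 14.8 CPM in tumour (median 8.82) and from 1.84 to 15.2 CPM in peritumour (median 11.4), with the groups overlapping. It was lower in the tumour of 10 of 14 animals, at a log2 fold change of -0.34 ± 0.21 (SE) with the animal block (edgeR, adjusted p = 0.294). Mycl varied most within animals among the 9 tested members, with an SD of 0.83 over the 14 log2 differences. In M replicate 2 it measured 3.94 CPM in tumour and 11.3 CPM around it, and in F replicate 5 the order was turned, with 4.98 CPM in tumour and 1.84 CPM around it. F replicate 5 had the lowest hepatocyte marker sum of the peritumour libraries, 16700 CPM, and 660 CPM of granulocyte precursor markers, whose part in that value was not tested.

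Max, the obligate partner (chr12:76917737-76962343), was the steadiest member within animals, with an SD of 0.17 over the 14 log2 differences. It ran from 56.6 to 98.3 CPM in tumour (median 69.3) and from 50.5 to 79.3 CPM in peritumour (median 67.9). The groups overlapped, and F replicate 1 had the widest difference, 98.3 against 71.1 CPM. The log2 fold change was 0.11 ± 0.06 (SE, adjusted p = 0.23 with the block). Mlx, the partner shared with the glucose-sensing branch (chr11:101086711-101092207), ran from 29.4 to 70.7 CPM in tumour (median 48.9) and from 41.9 to 64.9 CPM in peritumour (median 46.4), with a log2 fold change of 0.04 ± 0.08 (SE, adjusted p = 0.754). The low value of 29.4 CPM was the tumour of F replicate 2, against 48.8 CPM around it. That tumour had the lowest hepatocyte marker sum of the tumours, 15200 CPM, and 1420 CPM of cholangiocyte markers, whose part in the Mlx value was not tested. The 3′ end of Mlx overlaps Psmc3ip on the other strand by 385 bases, and Psmc3ip ran from 1.75 to 4.32 CPM over all libraries.

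Mnt, the broadly expressed antagonist that pairs with Max or Mlx (chr11:74830781-74845725), had the smallest p after Myc in the comparison of tissues, though Mycl had the larger estimate. It ran from 13.5 to 33.7 CPM in tumour (median 24.9) and from 14.2 to 31.1 CPM in peritumour (median 20.1). The groups overlapped, with the tumour higher in 10 of 14 animals, 9 of 11 with F and 1 of 3 with M. F replicate 5 had the widest difference, 29.3 against 14.2 CPM. With the animal block the log2 fold change was 0.21 ± 0.09 (SE, p = 0.0266, edgeR adjusted p = 0.123), and within F it was 0.28 ± 0.10 (SE, adjusted p = 0.0744). DESeq2 with the block called Mnt and Myc within F, the only setting run on all libraries that called a second member.

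Mxi1, an Mxd protein that opposes Myc at shared targets (chr19:53310414-53375810), ran from 31.5 to 69.2 CPM in tumour (median 48.0) and from 31.5 to 57.7 CPM in peritumour (median 44.6). It was higher in the tumour of 12 of 14 animals by small steps, at a log2 fold change of 0.15 ± 0.08 (SE, adjusted p = 0.215 with the block). The exceptions were F replicate 2, with 37.4 against 46.9 CPM, and F replicate 4, with 32.6 against 44.3 CPM. Mxd4, linked to differentiated and resting cells (chr5:34150951-34187710), ran from 13.7 to 39.2 CPM in tumour (median 28.4) and from 12.3 to 41.8 CPM in peritumour (median 29.3). Its log2 fold change was -0.05 ± 0.08 (SE, adjusted p = 0.749), and both its lowest values came from F replicate 5, at 13.7 and 12.3 CPM.

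Mxd1, a member that rises as cells leave the cycle and is known from maturing granulocytes (chr6:86647044-86669326), ran from 6.49 to 22.0 CPM in tumour (median 14.4) and from 7.34 to 21.6 CPM in peritumour (median 12.2). Its highest values were in F replicate 6 tumour, F replicate 5 peritumour and F replicate 4 tumour (20.1 CPM). These 3 libraries held 561, 660 and 469 CPM of granulocyte precursor markers. Mxd1 was 16.3 CPM in F replicate 2 peritumour, which also held 469 CPM of these markers. In F replicate 7 tumour it was 18.1 CPM with 109 CPM of them. In F replicate 9 it was 16.9 CPM in tumour and 17.3 CPM around it, with 38.9 and 61.1 CPM of them. In F replicate 8 the markers were 132 CPM in tumour and 19.8 CPM around it, and Mxd1 was 10.6 and 10.0 CPM. Within F replicate 4 Mxd1 stood at 20.1 CPM in tumour and 8.96 CPM around it, the widest difference. The part of granulocytes in these values was not tested. The log2 fold change over all animals was 0.08 ± 0.12 (SE, adjusted p = 0.687 with the block). Mxd3, the member found in S phase of dividing cells (chr13:55325168-55330046), was low throughout, from 0.76 to 4.46 CPM in tumour (median 2.82) and from 0.996 to 4.39 CPM in peritumour (median 2.76). Its log2 fold change was 0.11 ± 0.17 (SE, adjusted p = 0.713), and M replicates 2 and 3 differed in direction, with 3.41 CPM in tumour against 1.37 CPM around it in the one and 0.76 against 1.54 CPM in the other. Summed proliferation markers were 812 CPM in tumour and 379 CPM around it in M replicate 2, and 393 and 261 CPM in M replicate 3, and their part in the Mxd3 values was not tested. Mxd3 overlaps Prelid1 on the other strand by 105 bases, and Prelid1 ran from 218 to 534 CPM, so reads at that end cannot be told apart without strand.

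**Figure D3:**
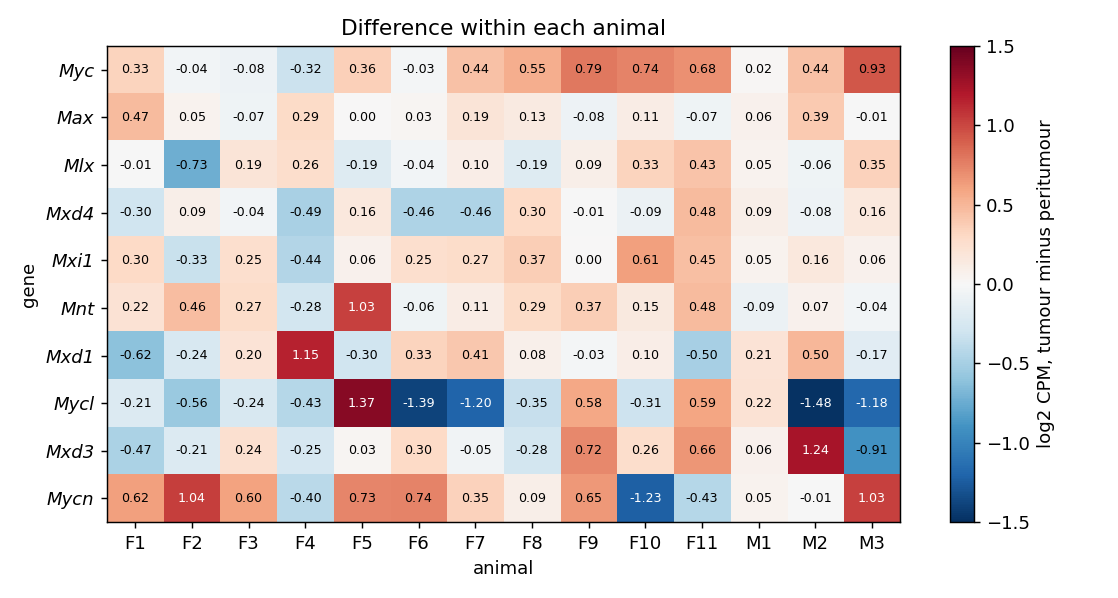
Difference in log2 CPM (prior count 2), tumour minus peritumour, for each member (rows, by mean TPM) in each animal (columns), with the value in each cell and colour from blue (lower in tumour) to red (higher). The Myc row is mostly red, the Max row is pale, and Mycl holds the widest differences of the 9 tested members, from -1.48 in M2 to 1.37 in F5.

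**Figure D4:**
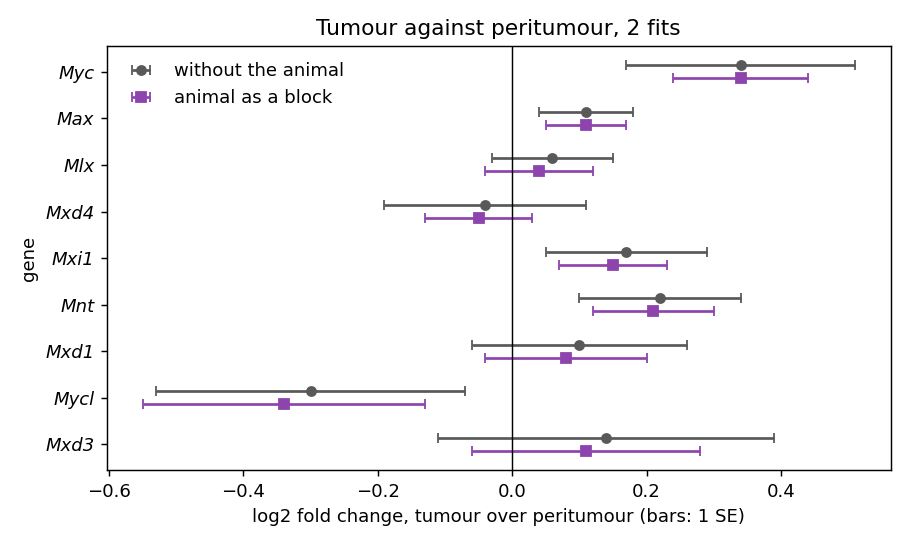
Log2 fold change of the 9 tested members, tumour over peritumour, with bars of 1 SE, from the fit without the animal (grey circles) and with the animal as a block (purple squares). The block leaves the estimates nearly in place and narrows the bars, and Myc lies farthest above 0 at 0.34 in both fits.

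The authors' deposited table gives its own log2 fold changes for tumour over peritumour, 0.59 for Mycn, at its few counts, 0.37 for Myc, 0.27 for Mnt, 0.20 for Mxi1, 0.15 for Max and -0.29 for Mycl. A q-value under 0.05 was given in the authors' deposited table for 8 of the 10 members, beside 66.0% of the 17346 genes with a q-value. Those q-values are in columns named for degseq.

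The letters F and M were compared in the same way, and edgeR called no member. Within F, 0 of 9 members passed by edgeR, against 0.312% of all genes without the block and 9.84% with it. Myc was at 460 ± 135 CPM in Tu_F and 378 ± 137 CPM in Pe_F (SD, n = 11 each), a log2 fold change of 0.31 ± 0.12 (SE, edgeR adjusted p = 0.0918 with the block), while DESeq2 with the block called Myc and Mnt there. Within M the values were 333, 351 and 667 CPM in tumour and 330, 259 and 350 CPM around it, a log2 fold change of 0.46 ± 0.22 (SE, edgeR adjusted p = 0.524 with the block). Here 0% of all genes passed with or without the block, in 3 animals. The difference of the effects, M minus F, was 0.15 ± 0.25 for Myc and -0.61 ± 0.49 for Mycl (log2, SE, edgeR adjusted p = 0.868 and 0.736 with the block), and 0% of all genes passed in either fit. Mycl measured 14.8, 3.94 and 6.63 CPM in Tu_M and 12.7, 11.3 and 15.2 CPM in Pe_M, lower in tumour in 2 of 3. Low values were not particular to M. The tumours of F replicates 6 and 7 held 2.77 and 4.78 CPM, against 7.45 and 11.2 CPM around them. Mycl was higher in tumour in 3 of 11 F animals.

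Between the letters within a tissue, 0 of 9 members passed by edgeR or DESeq2, against an edgeR share of 0.0283% of all genes in tumour and 0.0283% in peritumour. The widest member differences were 0.42 ± 0.29 for Mxd4 and -0.51 ± 0.51 for Mxd3 in tumour, and -0.74 ± 0.51 for Mxd3 and 0.34 ± 0.24 for Mnt in peritumour (log2, M over F, SE, edgeR adjusted p between 0.664 and 1). All M libraries have the first code style, and that style was a covariate in these contrasts.

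Myc and Mxi1 levels were related across animals in each tissue. Both tissues come from the same 14 animals, so the 2 results are not independent. The share of all genes that relate to Myc as closely was not computed. Across the 14 tumours log2 CPM of Mxi1 rose with that of Myc, with Pearson r of 0.73 and Spearman rho of 0.74 (two-sided permutation test, 100000 resamples, p = 0.00398 and 0.00332, adjusted p = 0.0371 and 0.0465 over 28 relations). Across the 14 peritumour libraries r was 0.76 and rho 0.76 (permutation p = 0.00199 and 0.00237, adjusted p = 0.0371 and 0.0465). Within the first and second code styles r was 0.74 and 0.75 in tumour and 0.69 and 0.83 in peritumour. The 2 libraries farthest from the median of Myc were F replicates 3 and 10 in tumour and 6 and 8 in peritumour. Without them r was 0.66 (permutation, adjusted p = 0.142) and 0.77 (permutation, adjusted p = 0.0462). In tumour the call was thus lost over the 12 libraries left. At the ends, the tumour of F replicate 10 held 671 CPM of Myc with 69.2 CPM of Mxi1, and the peritumour of F replicate 9 held 217 CPM with 31.5 CPM. Tumours of F replicates 2, 4 and 9 lay below the others, with 37.4, 32.6 and 31.5 CPM of Mxi1 at 458, 372 and 375 CPM of Myc.

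**Figure D5:**
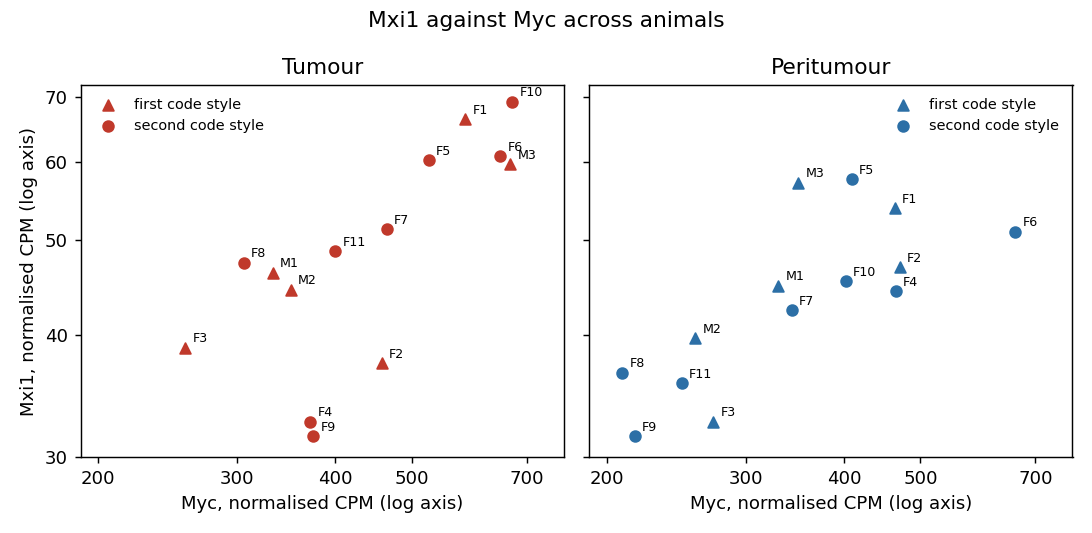
Mxi1 against Myc in TMM-normalised CPM on log axes, 1 point an animal, in tumour (left, red) and peritumour (right, blue), with triangles for the first code style and circles for the second. Mxi1 is higher where Myc is higher in each panel (r = 0.73 and 0.76, n = 14 each), and F2, F4 and F9 lie low in tumour.

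On TMM-scaled levels, none of the other 16 relations of Myc with a member passed over the 28 relations. Max gave r of 0.51 in tumour and 0.52 in peritumour (permutation, adjusted p = 0.145 and 0.14, rho 0.40 and 0.45), and on library size alone the peritumour value was 0.65 (permutation, adjusted p = 0.0358). Mxd3 gave the lowest value in tumour, with r of -0.59 and rho of -0.60 (permutation, adjusted p = 0.078 and 0.0977), and r was 0.16 in peritumour, though the difference between the tissues was not tested. Within the first code style that tumour r was -0.86 and within the second -0.29. Mnt gave r of 0.46 in tumour (permutation, adjusted p = 0.204) and -0.01 in peritumour (permutation, adjusted p = 0.965).

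The levels in the 2 tissues of an animal were set against each other for each member. The share of all genes with such r values between the tissues was not computed. For Myc in peritumour against tumour r was 0.66 and rho 0.58 over 14 animals (permutation, adjusted p = 0.0559 and 0.113), and 0.53 without F replicates 6 and 8. On library size alone it was 0.73 (permutation, adjusted p = 0.0215). Max, Mxd1 and Mxi1 gave r of 0.61, 0.63 and 0.65 (permutation, adjusted p = 0.0733, 0.0729 and 0.0583). On library size alone these passed (permutation, adjusted p = 0.0246, 0.0262 and 0.0143). Mycn, Mycl and Mlx gave 0.45, 0.34 and 0.43 and passed on neither scale. Mxd3 gave r of 0.68 (permutation, adjusted p = 0.0484, rho 0.53) and Mxd4 0.76 (permutation, adjusted p = 0.0371, rho 0.50). Without the 2 animals farthest from the median, neither passed over the 12 left. There r was 0.58 for Mxd3 (permutation, adjusted p = 0.247) and 0.33 for Mxd4 (permutation, adjusted p = 0.508). Within the first and second code styles r was 0.49 and 0.85 for Mxd3, and 0.92 and 0.76 for Mxd4. Both calls were thus lost without those animals. Mnt gave 0.55 over all animals and 0.77 without M replicate 3 and F replicate 5 (permutation, adjusted p = 0.115 and 0.0462).

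The genes whose pattern was most like that of Myc over the 28 libraries were sought on log2 CPM centred within group and code style, among 10476 tested genes of at least 5 CPM. They were Adprhl2, an ADP-ribose hydrolase (r = 0.86), Gemin4 of the SMN complex (r = 0.85), Tmem131l (r = 0.85), Slc19a1, the reduced folate carrier (r = 0.84), and Msto1 (r = 0.84). All 5 had r between 0.77 and 0.94 within each tissue. Most like Mxi1 were Adpgk, an ADP-dependent glucokinase (r = 0.91), Uck2, a uridine-cytidine kinase (r = 0.89), and Dhodh of pyrimidine synthesis (r = 0.89). Most like Mxd3 were Nuf2 of the kinetochore (r = 0.84), Nusap1 of the spindle (r = 0.79) and Neil3, a DNA glycosylase (r = 0.76). These are the highest of many values over libraries that share animals and composition, given as a description.

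The genes around the network were counted in 7 lists, with the animal block. The fit without the animal was the main fit, and it called 0 genes of these lists. Their counts stand beside 5.59% of all genes called higher and 5.91% called lower. The median log2 fold change of all 14117 genes was -0.01 with the block, and that of the 9 tested members was 0.11. The remaining partners of Max and Mlx (Mga, Mlxip and Mlxipl) gave 0 of 3 calls. Mlxipl was the most abundant of them, from 84.3 to 399 CPM in tumour (median 205) and from 119 to 336 CPM in peritumour (median 257), and it was lower in 10 of 14 tumours (log2 -0.29 ± 0.10, SE, edgeR adjusted p = 0.075). Mlxip had a log2 fold change of 0.21 ± 0.08 (SE, adjusted p = 0.098) and Mga, a Max partner of the Polycomb kind, -0.21 ± 0.12 (SE, adjusted p = 0.278). Mga ran down to 6.68 CPM in tumour, and its widest difference was -1.54 in F replicate 11.

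Of 12 Myc cofactors 3 rose and 0 fell in tumour, with a median log2 fold change of 0.16. Kat2a, the acetyltransferase GCN5 that Myc brings to promoters through Trrap, had a mean of 112 ± 22.6 CPM in tumour and 87.4 ± 13.0 CPM in peritumour (SD, n = 14 each), the tumour being above in 13 of 14 animals. Its log2 fold change was 0.35 ± 0.07 (SE, edgeR adjusted p = 0.00919 with the block). Ruvbl1, an ATPase of the Tip60 complex, rose by 0.27 ± 0.07 (SE, adjusted p = 0.021), and Wdr5, which helps Myc settle on chromatin, by 0.26 ± 0.07 (SE, adjusted p = 0.0262). Kat2a was called with each of the 14 animals left out in turn, Ruvbl1 in 13 and Wdr5 in 11 of them. Trrap itself was at -0.11 ± 0.08 (SE, adjusted p = 0.418), and none of the 6 corepressors of Mxd and Mnt was called (median 0.08), Hdac1 coming nearest at 0.20 ± 0.07 (SE, adjusted p = 0.0876).

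Among 12 genes of Myc protein turnover, 2 rose and 1 fell, with a median log2 fold change of 0.16. Skp2, a ubiquitin ligase subunit that both degrades Myc and serves as its cofactor, ran from 15.9 to 50.4 CPM in tumour (median 24.5) and from 11.7 to 35.9 CPM in peritumour (median 17.8), and was higher in 12 of 14 animals (log2 0.58 ± 0.12, SE, edgeR adjusted p = 0.00697). Usp36, a nucleolar deubiquitinase that stabilises Myc, had a log2 fold change of 0.37 ± 0.09 (SE, edgeR adjusted p = 0.0153). It was higher in the tumour of 14 of 14 animals, though the log2 difference in F replicate 4 was 0.0. On library size alone it was higher in 13 of 14. Ppp2r5a, the phosphatase subunit that removes the stabilising serine phosphate of Myc, fell by 0.25 ± 0.07 on the log2 scale (SE, adjusted p = 0.0379). Skp2 and Usp36 were called in all 14 of the fits with an animal left out, and Ppp2r5a in 3 of them. Fbxw7, the ligase best known for Myc degradation, stood at -0.10 ± 0.11 (SE, adjusted p = 0.573).

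Of 14 induced Myc targets 3 rose and 0 fell, with 12 estimates above 0 and a median of 0.16. Cdk4, whose promoter with 4 E-boxes is printed above, ran from 155 to 310 CPM in tumour and from 120 to 275 CPM in peritumour (log2 0.29 ± 0.09, SE, edgeR adjusted p = 0.0392). Nop56, a core protein of the box C/D particles that modify ribosomal RNA, rose by 0.32 ± 0.08 (SE, adjusted p = 0.025). Tert, the telomerase catalytic subunit, rose by 0.40 ± 0.12 (SE, adjusted p = 0.045). Nop56 and Tert have no E-box in their windows, while Eif4e, Ldha and Nme1 have it in a window and were not called. Any link of the motif to the change was not tested. Nop56 was called in 11, Cdk4 in 5 and Tert in 3 of the 14 fits with an animal left out, and without F replicate 8 the list had 0 calls. With F replicates 2, 5 and 6 left out together, 5 of the 14 rose (Cad, Cdk4, Fbl, Nop56 and Tert). Odc1, Ncl, Npm1 and Ldha, targets as well established, stood at 0.12, -0.15, 0.04 and -0.02 on the log2 scale, none called. The 5 genes that Myc represses had 0 calls, and their median was 0.26, above 0 rather than below it. Cdkn1a was at 0.31 ± 0.13 (SE, adjusted p = 0.125) and Cdkn2b, at 0.0691 to 2.98 CPM in tumour, at 1.13 ± 0.49 (SE, adjusted p = 0.146).

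Of 11 targets of Mlxipl with Mlx, 0 rose and 2 fell, with a median log2 fold change of -0.29. Elovl6, a fatty acid elongase, fell by 0.53 ± 0.12 on the log2 scale (SE, adjusted p = 0.0125). It was lower in the tumour of 12 of 14 animals and was called in each of the 14 fits with an animal left out. Khk stood at -0.38 ± 0.14 and Pklr at -0.33 ± 0.20 (SE, adjusted p = 0.0791 and 0.285), and Fasn and Acly at -0.15 and 0.00. Markers of several liver cell types were also called lower in tumour by edgeR with the block. They were 4 of 8 hepatocyte markers (Alb, Cps1, Hpd and Tat, list median -0.38), 4 of 5 Kupffer cell markers (median -0.93), 3 of 4 stellate cell markers (median -0.83) and 2 of 4 sinusoidal endothelium markers (median -0.51). The part of these cell types in the changes of Myc and of the 7 lists was not tested.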

How the data were processed

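Estimated counts per gene and library, and TPM, were deposited by the authors, per the file headers, for 28 libraries; 8.06% of the counts are not whole. Per the submitters' processing notes, the tools were RSEM 1.2.12, HISAT2 2.0.4, DESeq2 1.4.5 and Bowtie2 2.2.5, with no roles given. The authors also deposited log2 fold changes and q-values, per the file headers; their method beyond the column name, and whether strand was kept, are not given in the sources used here. A group without a sample among the labels was not used.

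Counts were rounded and tested in R 4.3.3 with edgeR 4.0.16: filterByExpr left 14117 genes, TMM factors ran from 0.809 to 1.36, the quasi-likelihood fit was robust, and the Benjamini-Hochberg threshold was 0.05. The test was also run on simulated data with known changes, all larger than the Myc estimate and without code style or letter effects. It therefore does not check a call of the size of Myc. CPM is TMM-scaled, and log2 CPM uses a prior count of 2. DESeq2 1.42.0 was an alternative. Title codes were taken to pair the libraries. Deviations from the group means correlated within every pair (0.135 to 0.61, median of unpaired libraries -0.0171). Among the peritumour samples, the closest match by this correlation carried the same code for 10 of 14 tumours, and another code for the rest. The biological coefficient of variation was 0.27 with the animal block and 0.381 without. The 2 styles of title code, 12 and 16 libraries, were a covariate as a possible batch; the M libraries are all of the first. Each library was taken as 1 sample of 1 animal.

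Named genes were all members and, per list, up to 3 higher and 3 lower by adjusted p with the block. Genes like a member were the highest Pearson r. Members and lists were chosen with earlier results of these data known. Correlations used 28 relations. Promoters are RefSeq, GRCm38.p6. Locus coordinates are those of the deposited table, GRCm38. Gene overlaps were sought within GENCODE bounds on GRCm38, which for Max and Mxd4 are narrower than the deposited loci. Overlaps outside those bounds were not sought. Replicates of 1 group differed beyond sampling noise, with a lowest index of dispersion of 18.3. The result of 1 further gene of the Mlxipl target list is not reported here.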

Additional observations from a re-analysis of the deposited data

How the results depend on the processing

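Of 1091 values recomputed under other settings, 973 kept their direction and side of the threshold or stayed within 1.5 times of a count, 84 fell, 30 rose past it and 4 reversed; the cause was not tested. The 4 were near 0 in the first code style alone: Mxd4 0.01 and Mlx -0.01 without the block, Mxd1 -0.01 and Mlx -0.03 with the replicate block. Myc kept its direction in every setting for tumour against peritumour, from 0.27 to 0.43. For that comparison the count of genes called was 148; it was 1624 with the replicate block, 64 with no filter, 622 with DESeq2, 455 without F pairs 2, 5 and 6, 0 in either code style, and 0 to 246 with an animal left out. Members called went from 0 to 1 with the replicate block. With the block the 1624 genes became 148 without it, 0 in the first and 981 in the second style, and 899 to 1957 with an animal left out; the 1 member became 0 without the block and in each style, and 0 to 1 with an animal left out. The block calls split into 789 higher and 835 lower, and into 1151 and 677 on library size alone. Without the block they split into 114 and 34.

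Within F, 44 genes were called; 1389 with the replicate block, 24 on library size, 10 with no filter, 546 with DESeq2, 9 with tissue alone, 13 without F pairs 2, 5 and 6, 0 in the first style, 0 to 75 with an animal left out. With the block, 1389 became 44 without it, 2249 with DESeq2, 0 in the first style and 756 to 1523 with an animal left out, and members called went from 0 to 2 with DESeq2 and 0 to 2 with an animal left out. Within M, edgeR called 0 genes, and with the block 0, or 0 to 4 with an animal left out; DESeq2 called 3, and 102 with the block, and without the block 1 for the difference of effects. M against F in tumour had 4 genes, 68 with DESeq2, 7 with tissue alone and 7 without F pairs 2, 5 and 6. Of the relations, 4 passed, 9 on library size (Myc with Max in peritumour among them) and 2 without the 2 farthest samples. M against F could not be fitted with the animal block, nor any contrast with M in the second style. Without the filter Mycn was at 0.53 ± 0.36 (SE, log2), edgeR adjusted p 0.464. Mycn, Mxd3 and Cdkn2b rest on few counts, so small changes in them were not detectable at this depth. Recomputing the counts of the 7 other lists under these settings was chosen after seeing the data.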
